A study of Mus musculus with 18 samples.

Results

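The nuclear genes for the subunits of respiratory chain complexes I, III and IV and of the ATP synthase (complex V) were followed in mouse cells on the way from cardiac fibroblast to a cardiomyocyte-like state. The members were taken by gene name: the Nduf genes of the a, b, c, s and v series with Ndufab1, the Uqcr genes with Cyc1, Cox4 to Cox8 and Atp5a to Atp5o, without pseudogenes and predicted genes. This gave 80 of the 23420 genes in each count table, 38 for complex I, 9 for complex III, 18 for complex IV and 15 for complex V. The rule uses gene names only, and it was set with earlier results of these data known. Subunits encoded by mitochondrial DNA are not part of the set and are not analysed here.

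The cells were primary cardiac fibroblasts from neonatal CD1 mice, an outbred stock. All groups used here received a retrovirus with Mef2c, Gata4 and Tbx5 (MGT) in a single polycistronic construct, together with short hairpin RNAs (shRNAs). In the second of 2 sample sets, 12 libraries form 4 groups of 3: a non-targeting shRNA (shNT), an shRNA to Mtfr1l, an shRNA to Opa1, and both (the double knockdown). The titles give days 7, 8 and 9 to replicates 1, 2 and 3, and the genotype field of the Opa1 knockdown libraries reads shOpa1, shOpa2 and shOpa3 over the same replicates, so day and this field cannot be told apart from the replicate number. The labels call the libraries biological replicates but name no animal or isolation for each, so that a p-value here reflects how far these libraries scatter, which may be technical. From the first set, 1 shNT and 1 shMtfr1l reprogramming sample of day 7 are used (the label of the second gives 85% knockdown), each as the sum of 3 count columns, without a test. The labels' protocols name no sorting of the cells. The question posed is how lowering Mtfr1l acts on the reprogramming of these cells.

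Complexes I, III and IV pass electrons from NADH and ubiquinol to oxygen and pump protons across the inner mitochondrial membrane, and complex V uses the returning protons to make ATP. Each complex mixes subunits from both genomes and needs its parts in fixed proportion. Heart muscle is rich in all of them and swaps several complex IV subunits for muscle isoforms as it matures. Mtfr1l belongs to a family of mitochondrial fission regulators, and Opa1 is the GTPase that fuses inner membranes and shapes the cristae in which these complexes sit.

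Levels are CPM, counts scaled to a common library size after TMM, which corrects for library size and composition. Depth ran from 16205862 to 25317069 gene counts per library in the second set, and 3 counts, the limit that a count of 0 allows, correspond to 0.117 to 0.183 CPM (counting error only). This limit takes counts as independent. The mates of a read pair were counted separately, so the true limit may be higher. Mtfr1l stood at 69.4, 69.5 and 76.7 CPM with shNT, 15.7, 13.9 and 19.5 with shMtfr1l, 65.8, 71.1 and 71.97 with shOpa1 and 22.8, 31.05 and 27.8 with both shRNAs. Opa1 stood at 56.96, 72.6 and 59.7 CPM with shNT, 70.7, 72.2 and 73.4 with shMtfr1l, 7.43, 6.85 and 12.6 with shOpa1 and 20.7, 15.99 and 18.2 with both shRNAs. Each target was lowest in the groups that carried its shRNA, with no overlap with shNT. Differences are edgeR fits over 14162 genes and 6 comparisons, with SE and a p-value adjusted over all genes (called under 0.05), and 77 of the 80 members passed the filter on low counts.

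Per kb of gene length, the scale on which genes can be compared, the members ranged widely. Over all 12 libraries the highest means were those of Atp5b, the catalytic beta subunit of the ATP synthase (545 CPM per kb), and Cox4i1, the common form of the largest nuclear complex IV subunit (491 CPM per kb). The median per-length level was 58.8 CPM per kb for complex I, 97.2 for complex III, 42.4 for complex IV and 82.2 for complex V. Summed over its genes, complex V held 2552 ± 114 CPM in shNT (SD, n = 3), 2826 ± 37.9 in shMtfr1l, 2686 ± 11.9 in shOpa1 and 2732 ± 81.5 with both shRNAs. The complex I sum was 2023 ± 131, 2140.1 ± 47.3, 1901 ± 17.2 and 1949.7 ± 64.2 CPM in the same order. For complex III it was 767 ± 44.3, 858 ± 17.6, 807 ± 37.03 and 826 ± 31.2 CPM, and for complex IV 1354 ± 88.6, 1383 ± 32.7, 1379 ± 31.4 and 1319 ± 41.4 CPM. The complex III and V sums of every shMtfr1l library lay above those of every shNT library, and the complex I and IV sums overlapped between these groups. Such sums are weighted to the most abundant genes, such as Atp5b. Gene by gene, the fitted log2 fold change in shMtfr1l was positive for 9 and negative for 6 complex V genes (median 0.06). For complex III it was positive for 8 and negative for 1 (median 0.21).

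Some low values come with a known limit of the counting, since reads that fit several places or several genes were not counted. Of each member's annotated transcript (GENCODE M21), the share of 50-base windows that also occur, letter for letter, in another annotated gene was computed. The 16 members with over 30% shared windows (tissue isoforms aside) had a median of 15.96 CPM per kb (0 to 110), against 89.8 for the 42 members with at most 10%. The 14 members between these bounds had a median of 96.3 CPM per kb, so the medians did not fall step by step. Whether shared sequence lowered the levels was not tested. Atp5l, subunit g of the ATP synthase, shared 84.8% of its windows with 14 other genes, 12 of them pseudogenes, and stood at 5.88 CPM per kb. Ndufab1, the mitochondrial acyl carrier protein of complex I, shared 66.6% and stood at 8.16 CPM per kb. Ndufs5, a complex I accessory subunit, was listed at 0 counts in every library, and 95.1% of its exon bases overlap the same-strand gene BC002163, which held 38.4 to 47.2 CPM. The absolute levels of these members are therefore uncertain, also for Uqcrb (43.4% shared), Atp5f1 (38.7%) and Cox5a (32.05%), which carry calls.

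**Figure D1:**
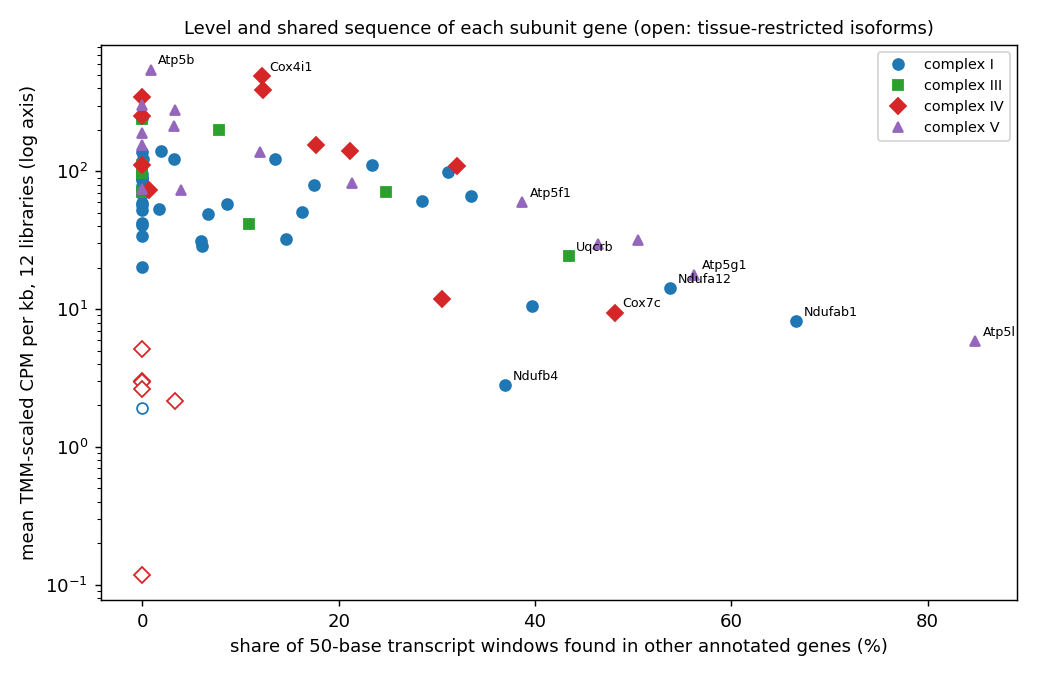
Mean level of each subunit gene over the 12 libraries (TMM-scaled CPM per kb, log axis) against the share of its transcript's 50-base windows found in other annotated genes (percent). Each point is 1 gene, coloured by complex, open points are tissue-restricted isoforms, and genes at 0 are left out. The members with the most shared sequence, such as Atp5l and Ndufab1, lie below 10 CPM per kb, while Atp5b and Cox4i1 lie highest.

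Promoters of the members were searched for the sites of factors known for respiratory genes. For 65 of the 80 members RefSeq (GRCm38.p6) gave a promoter, and the 250 bases before the first listed start were searched on both strands. The NRF1 palindrome (GCGC and TGCGC around any 1 base) was found in 10 of 65 (15.4%), against 3.86% of all 27025 promoters of the same length. The ETS core CCGGAAG, bound by GABP among many factors, was found in 10 (15.4%), against 7.05%. TCAAGGTCA, the half-site of Esrra, was found in 1 (1.54%), against 0.366%, and AAGATGGCG, for YY1, in none, against 0.607%. Sites of the reprogramming factors were searched as well. The MEF2 site (CTA and TAG around any 4 bases) was found in 1 (against 3.23%). The GATA-factor site AGATAA was found in 6 (9.23%, against 10.3%). The T-box site AGGTGTGA was found in none (against 1.14%). No motif searched contains another. Matches are letters only, and no test was made. The promoters of 3 genes with calls are shown, each with 1 of the first 3 motifs in capitals: Atp5g3, which rose in all 3 comparisons with shNT, and Ndufa11 and Atp5e, which fell with Opa1 knockdown. Other genes with calls, among them Atp5b, Atp5d, Atp5o, Uqcr10, Ndufs8, Ndufv2 and Ndufa1, had none of these 3 motifs. Atp5g3 also holds the GATA-factor site, left in small letters. The capitals lie 52 to 44 bases before the start in Atp5g3 (Esrra half-site on the other strand), 60 to 51 bases in Ndufa11 (NRF1) and 102 to 96 bases in Atp5e (ETS on the other strand).
Atp5g3 (chr2:73911327-73911576, minus strand, GRCm38.p6): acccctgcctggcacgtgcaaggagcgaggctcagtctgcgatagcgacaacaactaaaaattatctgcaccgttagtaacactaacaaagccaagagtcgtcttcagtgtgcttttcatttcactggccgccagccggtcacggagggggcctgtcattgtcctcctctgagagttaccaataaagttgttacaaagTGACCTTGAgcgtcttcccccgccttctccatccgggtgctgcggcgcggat
Ndufa11 (chr17:56717512-56717761, plus strand, GRCm38.p6): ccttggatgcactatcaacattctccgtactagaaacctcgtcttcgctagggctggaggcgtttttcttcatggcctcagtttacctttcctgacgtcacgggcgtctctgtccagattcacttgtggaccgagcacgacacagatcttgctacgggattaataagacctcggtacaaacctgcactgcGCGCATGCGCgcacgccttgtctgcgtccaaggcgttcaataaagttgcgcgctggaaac
Atp5e (chr2:174464102-174464351, minus strand, GRCm38.p6): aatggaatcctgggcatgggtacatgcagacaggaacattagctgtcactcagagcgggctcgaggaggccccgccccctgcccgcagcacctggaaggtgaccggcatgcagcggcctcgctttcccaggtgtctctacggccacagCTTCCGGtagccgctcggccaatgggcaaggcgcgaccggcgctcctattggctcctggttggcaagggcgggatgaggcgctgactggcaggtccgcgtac

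Markers of the cell types were read from lists. The summed CPM of 10 cardiomyocyte markers was 2719.9 to 2801 in shNT, 3500.4 to 3778 in shMtfr1l, 1561 to 1755 in shOpa1 and 2071 to 2135 with both shRNAs, without overlap. Of them 7 rose and 1 fell in shMtfr1l, 9 fell in shOpa1, 1 rose and 5 fell in the double knockdown against shNT, and 10 were lower in the double knockdown than in shMtfr1l. The share of all genes called in these 4 comparisons was 10.8%, 29.4%, 23.1% and 21.5%. The 9 fibroblast markers summed to 31976 to 34719, 31666 to 33597, 36662 to 37634 and 34717 to 36961 CPM in the same order, and 5 macrophage markers to 247 to 353, 127 to 452, 219 to 516 and 493 to 643 CPM. Smooth muscle (4 genes), epicardial (4) and endothelial (5) sums in shNT were 4055 to 4431, 163 to 175 and 19.6 to 27.2 CPM. In shMtfr1l they were 3510.1 to 3750.5, 117 to 122 and 32.7 to 37.8 CPM, in shOpa1 3454 to 3606, 119 to 142 and 15.2 to 24.2 CPM, and in the double knockdown 3305 to 3366, 116 to 137 and 25.1 to 27.6 CPM. In shMtfr1l 4 fibroblast markers fell and 1 rose, 3 smooth muscle and 2 epicardial markers fell, and 1 endothelial marker rose. In shOpa1 4 fibroblast markers fell and 3 rose, 3 smooth muscle, 2 epicardial and 1 endothelial marker fell, and 1 macrophage marker rose. In the double knockdown against shNT 4 fibroblast markers fell and 1 rose, 3 smooth muscle and 3 epicardial markers fell, and 1 macrophage marker rose. The 6 skeletal muscle markers summed to at most 11.8 CPM (1 of the 2 tested rose in each comparison with shNT). The 4 adipocyte markers summed to at most 21.8 CPM, in 1 shMtfr1l library, and the lowest sum in that group was 0.409 CPM. Their highest sum was 0.258 CPM in shNT, 0.238 in shOpa1 and 0.083 in the double knockdown. In bulk libraries a change in the number of cells of a type and a change in RNA per cell cannot be told apart, and the part of these markers in the subunit differences was not tested.

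Knockdown of Mtfr1l alone went with higher levels of several subunits of complex III. In the ATP synthase the alpha and beta head subunits, a ring subunit gene and the protein tying the head to the outer stalk rose. Lower levels were found for 2 stalk subunits of the ATP synthase. Of the 77 members tested, 11 rose and 2 fell against shNT, where 5.56% of all genes tested rose and 5.19% fell (10.8% in either direction). The median log2 fold change was 0.09 over the members and 0.00 over all genes, and it was positive for 58 members. By complex, 4 of 9 genes rose for complex III, 2 of 37 for complex I, 1 of 16 for complex IV and 4 of 15 for complex V, and both falls were in complex V. None of the 7 core complex I genes tested was called (2 of the 30 accessory ones were).

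Complex III held the rises with the largest fold. Uqcr10 (mm10 chromosome 11 from 4701968 to 4704344 on the minus strand), a small subunit next to cytochrome c1, stood at 41.5, 35.7 and 34.9 CPM with shNT, 50.3, 54.7 and 55.2 with shMtfr1l, 53.5, 52.6 and 47.2 with shOpa1 and 58.5, 52.3 and 50.2 with both shRNAs. All 9 knockdown libraries lay above all 3 shNT libraries. It rose 1.43-fold in shMtfr1l (a log2 change of 0.52 with SE 0.09 and adjusted p = 0.000102). Uqcrb (mm10 chromosome 13 from 66900621 to 66905350 on the minus strand), a small subunit that binds cytochrome b, stood at 10.8, 10.9 and 10.1 CPM with shNT, 15.6, 15.2 and 14.8 with shMtfr1l, 12.3, 11.03 and 11.7 with shOpa1 and 10.6, 10.5 and 11.9 with both shRNAs. The shMtfr1l libraries lay above those of all other groups, and it rose 1.44-fold there (a log2 change of 0.52 with SE 0.16 and adjusted p = 0.0226). Uqcrfs1, the Rieske iron-sulfur protein, stood at 86.1, 78.8 and 85.98 CPM with shNT and 94.3, 105 and 96.6 with shMtfr1l and rose 1.18-fold (a log2 change of 0.24 with SE 0.07 and adjusted p = 0.0203). Cyc1, cytochrome c1 itself, stood at 114, 95.95 and 99.8 CPM with shNT and 133, 119.6 and 121 with shMtfr1l and rose 1.21-fold (a log2 change of 0.27 with SE 0.08 and adjusted p = 0.0150). In both genes every shMtfr1l library lay above every shNT library. The core subunit Uqcrc1 stood at 157, 155 and 152 CPM with shNT and 168, 169 and 168 with shMtfr1l and did not pass (adjusted p = 0.184).

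Within the ATP synthase genes changed in both directions. Atp5b (mm10 chromosome 10 from 128083307 to 128090388 on the plus strand) stood at 975, 898 and 879 CPM with shNT, 1089.7, 1129 and 1132 with shMtfr1l, 980.0, 1001 and 1015 with shOpa1 and 1084, 1090.0 and 1009 with both shRNAs. It rose 1.22-fold in shMtfr1l (a log2 change of 0.28 with SE 0.04 and adjusted p = 1.48e-05), with no overlap. Its partner in the head, the alpha subunit Atp5a1, stood at 641, 643 and 602 CPM with shNT and 713, 703 and 689.9 with shMtfr1l and rose 1.12-fold (a log2 change of 0.16 with SE 0.04 and adjusted p = 0.0135). Atp5g3, 1 of 3 genes for the membrane ring subunit c, stood at 191, 185 and 175 CPM with shNT and 219, 233 and 217 with shMtfr1l and rose 1.22-fold (a log2 change of 0.28 with SE 0.05 and adjusted p = 0.000322). Atp5o, the oligomycin sensitivity protein that ties the head to the outer stalk, stood at 51.7, 57.8 and 53.4 CPM with shNT and 70.2, 70.4 and 75.99 with shMtfr1l and rose 1.33-fold (a log2 change of 0.41 with SE 0.08 and adjusted p = 0.00041).

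The opposite held for Atp5d (mm10 chromosome 10 from 80142315 to 80145818 on the plus strand), the delta subunit at the foot of the central stalk. It stood at 156, 158 and 164 CPM with shNT, 118, 114 and 123 with shMtfr1l, 169, 165 and 162 with shOpa1 and 136, 149.9 and 129.6 with both shRNAs. The shMtfr1l libraries were the lowest, those of the double knockdown lay between, and shOpa1 overlapped shNT. Atp5d fell 1.35-fold in shMtfr1l (a log2 change of -0.43 with SE 0.06 and adjusted p = 2.42e-06). Atp5f1 (mm10 chromosome 3 from 105942863 to 105960248 on the minus strand), subunit b of the outer stalk, stood at 109, 99.5 and 96.9 CPM with shNT, 83.5, 83.6 and 93.2 with shMtfr1l, 83.4, 74.4 and 81.6 with shOpa1 and 79.8, 82.7 and 79.9 with both shRNAs. All knockdown libraries lay below all shNT libraries, and it fell 1.17-fold in shMtfr1l (a log2 change of -0.23 with SE 0.07 and adjusted p = 0.0277). Atp5e, the epsilon subunit next to delta, stood at 98.5, 87.7 and 87.4 CPM with shNT and 77.9, 82.2 and 78.1 with shMtfr1l and did not pass in shMtfr1l (adjusted p = 0.0844), and neither did the gamma subunit Atp5c1 (adjusted p = 0.692).

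Complexes I and IV added 3 calls. Ndufa9, an accessory subunit at the junction of the matrix and membrane arms, stood at 64.9, 65.6 and 61.3 CPM with shNT and 80.4, 75.2 and 76.5 with shMtfr1l and rose 1.21-fold (a log2 change of 0.28 with SE 0.07 and adjusted p = 0.00959). Ndufb9, an accessory subunit of the membrane arm, stood at 68.8, 67.4 and 66.03 CPM with shNT and 73.4, 80.4 and 90.02 with shMtfr1l and rose 1.21-fold (a log2 change of 0.27 with SE 0.08 and adjusted p = 0.0193). Cox5a (mm10 chromosome 9 from 57521232 to 57532426 on the plus strand), a matrix-side subunit of complex IV, stood at 81.99, 75.3 and 69.6 CPM with shNT, 85.3, 92.9 and 90.1 with shMtfr1l, 59.5, 69.1 and 68.5 with shOpa1 and 69.1, 71.2 and 78.5 with both shRNAs and rose 1.18-fold in shMtfr1l (a log2 change of 0.24 with SE 0.08 and adjusted p = 0.0361). The groups did not overlap in any of them. The largest core subunit of complex I, Ndufs1, stood at 90.4, 91.8 and 80.2 CPM with shNT and 97.9, 98.8 and 97.4 with shMtfr1l and did not pass (adjusted p = 0.127).

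The calls on Atp5d, Atp5b, Uqcr10, Atp5o and Atp5g3 passed under all 21 alternative settings. Without shNT replicate 1 calls on Atp5f1 and Uqcrb were lost (adjusted p = 0.0537 to 0.162). Without shNT replicate 2 calls on Cox5a, Cyc1, Ndufb9, Uqcrb and Uqcrfs1 were lost (adjusted p = 0.0530 to 0.131). Without shNT replicate 3 calls on Atp5a1, Cox5a, Cyc1, Ndufa9, Ndufb9 and Uqcrb were lost (adjusted p = 0.0583 to 0.216). Without shMtfr1l replicate 1 calls on Atp5a1, Atp5f1, Cyc1, Ndufa9 and Uqcrb were lost (adjusted p = 0.0610 to 0.13). Without shMtfr1l replicate 2 calls on Atp5f1, Cox5a, Uqcrb and Uqcrfs1 were lost (adjusted p = 0.0574 to 0.135). Without shMtfr1l replicate 3 calls on Cox5a and Ndufb9 were lost (adjusted p = 0.0859 to 0.174). The number of members called fell from 13 to 8 without shMtfr1l replicate 1, 8 without shNT replicate 2 and 7 without shNT replicate 3. With a replicate number left out of all groups it was 12 without replicate 1, 6 without replicate 2 and 6 without replicate 3. Adjusted p then reached 0.399 for Uqcrfs1 (without replicate 2), 0.378 for Atp5f1 (without replicate 1) and 0.323 for Ndufb9 (without replicate 3). With replicate number as a block, the adjusted p of Cox5a was 0.0531, and without robust shrinkage it was 0.0520. Replicate 1 was the highest shNT library for 54 of the 77 members (70.1%), against 34.6% of all genes tested, and without it the members' median log2 fold change in shMtfr1l was 0.14. The median was 0.05 without shNT replicate 2 and 0.06 without shNT replicate 3.

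**Figure D2:**
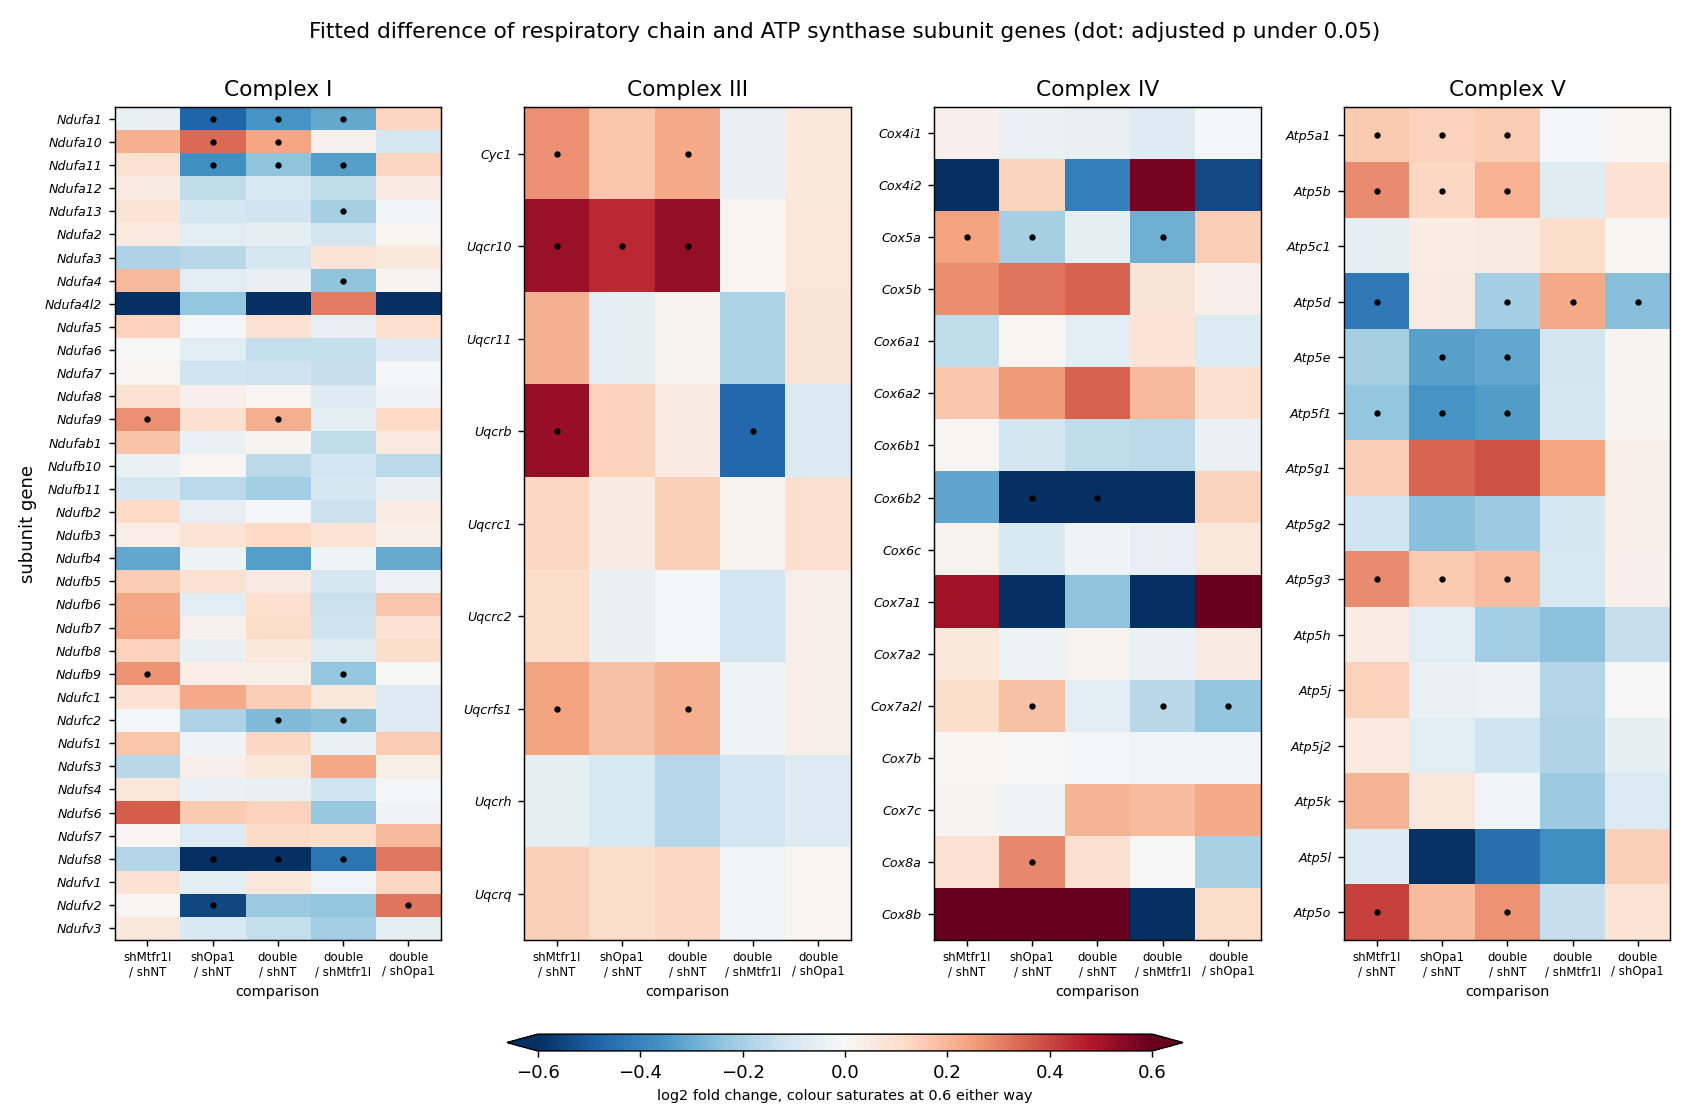
Fitted log2 fold change (colour, saturating at 0.6 either way) of 76 of the 77 subunit genes tested, by complex, in 5 group comparisons, with a dot where the adjusted p was under 0.05. In the comparison of shMtfr1l with shNT 8 of 9 complex III genes are red, and in that of the double knockdown with shMtfr1l 29 of the 36 complex I genes shown are blue. Atp5d is blue with a dot in shMtfr1l and in the double knockdown. The deepest colours without a dot belong to tissue isoforms and Atp5l, all at low counts.

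After knockdown of Opa1 alone, 7 members rose and 8 fell against shNT, where 14.3% of all genes rose and 15.1% fell, so the share of members called (19.5%) was below the 29.4% of all genes. The members' median log2 fold change was -0.04 (0.01 over all genes). In complex I, 4 of 37 genes fell and 1 rose, so that the share called there (13.5%) was also below that of all genes. The comparisons of shOpa1 and of the double knockdown use the same 3 shNT libraries as that of shMtfr1l.

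Ndufs8 (mm10 chromosome 19 from 3908863 to 3912774 on the minus strand), a core iron-sulfur subunit, stood at 57.5, 55.3 and 57.3 CPM with shNT, 52.1, 57.4 and 40.9 with shMtfr1l, 24.5, 28.1 and 36.4 with shOpa1 and 37.6, 39.5 and 33.6 with both shRNAs. The shOpa1 and double-knockdown libraries all lay below every shNT and shMtfr1l library. It fell 1.91-fold in shOpa1 (a log2 change of -0.93 with SE 0.12 and adjusted p = 1.5e-06), the largest fold among called members with a mean above 10 CPM. Ndufv2 (mm10 chromosome 17 from 66078795 to 66101491 on the minus strand), another core iron-sulfur subunit of the NADH-binding module, stood at 75.9, 63.95 and 62.3 CPM with shNT, 59.5, 64.2 and 79.6 with shMtfr1l, 48.4, 43.8 and 46.2 with shOpa1 and 57.96, 60.9 and 54.1 with both shRNAs. Only shOpa1 was apart from all other groups, and it fell 1.46-fold there (a log2 change of -0.54 with SE 0.09 and adjusted p = 1.8e-05). Ndufa1, a small accessory subunit of the membrane arm, stood at 42.9, 46.1 and 45.00 CPM with shNT, 42.4, 45.1 and 42.3 with shMtfr1l, 32.8, 32.6 and 30.7 with shOpa1 and 32.9, 37.5 and 34.6 with both shRNAs and fell 1.39-fold in shOpa1 (a log2 change of -0.48 with SE 0.09 and adjusted p = 8.78e-05). Ndufa11, another accessory subunit of the membrane arm, stood at 90.2, 80.5 and 80.6 CPM with shNT, 92.4, 89.2 and 85.4 with shMtfr1l, 60.7, 61.7 and 71.8 with shOpa1 and 72.5, 74.3 and 65.6 with both shRNAs and fell 1.29-fold (a log2 change of -0.37 with SE 0.08 and adjusted p = 0.000243). Both were lower in every shOpa1 and double-knockdown library than in any library without the Opa1 shRNA. Ndufa10, an accessory subunit of the membrane arm's matrix face, went the other way, at 59.8, 60.6 and 60.1 CPM with shNT, 73.4, 65.01 and 70.9 with shMtfr1l, 78.7, 75.8 and 73.8 with shOpa1 and 71.7, 72.7 and 68.4 with both shRNAs, and rose 1.26-fold in shOpa1 (a log2 change of 0.34 with SE 0.07 and adjusted p = 0.000396).

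In shOpa1, complex III held 1 rise, complex IV 2 rises and 2 falls, and complex V 3 rises and 2 falls. Uqcr10 rose 1.37-fold (a log2 change of 0.45 with SE 0.09 and adjusted p = 0.00015), with the values given above. Cox8a, the common form of the smallest complex IV subunit, stood at 175, 169 and 176 CPM with shNT, 196, 174 and 184 with shMtfr1l, 214, 226 and 195 with shOpa1 and 184, 201 and 169 with both shRNAs, with shOpa1 above shNT in every library, and rose 1.22-fold (a log2 change of 0.29 with SE 0.06 and adjusted p = 0.000406). Cox7a2l (mm10 chromosome 17 from 83501917 to 83514333 on the minus strand), which joins complexes III and IV into supercomplexes, stood at 185, 167 and 161 CPM with shNT, 183, 183 and 185 with shMtfr1l, 195, 198 and 184 with shOpa1 and 167, 171 and 152 with both shRNAs. It rose 1.13-fold in shOpa1 (a log2 change of 0.17 with SE 0.06 and adjusted p = 0.0237), although the lowest shOpa1 library lay just under the highest shNT library. Cox5a, which was higher in shMtfr1l, fell 1.15-fold in shOpa1 (a log2 change of -0.20 with SE 0.08 and adjusted p = 0.0482). Atp5e stood at 98.5, 87.7 and 87.4 CPM with shNT and 77.1, 72.9 and 68.01 with shOpa1 and fell 1.25-fold (a log2 change of -0.33 with SE 0.07 and adjusted p = 0.000647), and Atp5f1 fell 1.28-fold (a log2 change of -0.35 with SE 0.07 and adjusted p = 0.000152). Atp5b (1.09-fold), Atp5a1 (1.10-fold) and Atp5g3 (1.12-fold) rose (adjusted p = 0.0358, 0.0136 and 0.0246). Atp5d did not pass in shOpa1 (adjusted p = 0.561).

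Calls on Ndufs8, Ndufv2, Ndufa1, Ndufa11, Ndufa10, Uqcr10, Cox8a, Atp5e and Atp5f1 passed under all 21 alternative settings. Atp5b lost its call without shNT replicate 2 or 3 or shOpa1 replicate 1, 2 or 3 (adjusted p = 0.0538 to 0.2). Cox7a2l lost its call without shNT replicate 2 or 3 or shOpa1 replicate 1 or 2 (adjusted p = 0.0772 to 0.153). Atp5a1 lost its call without shNT replicate 3 or shOpa1 replicate 1 (adjusted p = 0.0687 to 0.108). Atp5g3 lost its call without shNT replicate 2 or 3 or shOpa1 replicate 2 or 3 (adjusted p = 0.0530 to 0.138). Cox6b2 lost its call without shNT replicate 2 or shOpa1 replicate 2 (adjusted p = 0.0746 to 0.0940). Cox5a lost its call without shNT replicate 1 or 2, shMtfr1l replicate 1 or 2, shOpa1 replicate 1 or double-knockdown replicate 1 or 2 (adjusted p = 0.0502 to 0.27). The Cox5a call was also lost in DESeq2, without robust shrinkage, with only the 2 groups in the fit and with replicate number as a block (adjusted p = 0.0554, 0.0587, 0.0589 and 0.0575). With only the 2 groups in the fit, Atp5b (adjusted p = 0.0661) and Cox6b2 (adjusted p = 0.0691) did not pass either.

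**Figure D3:**
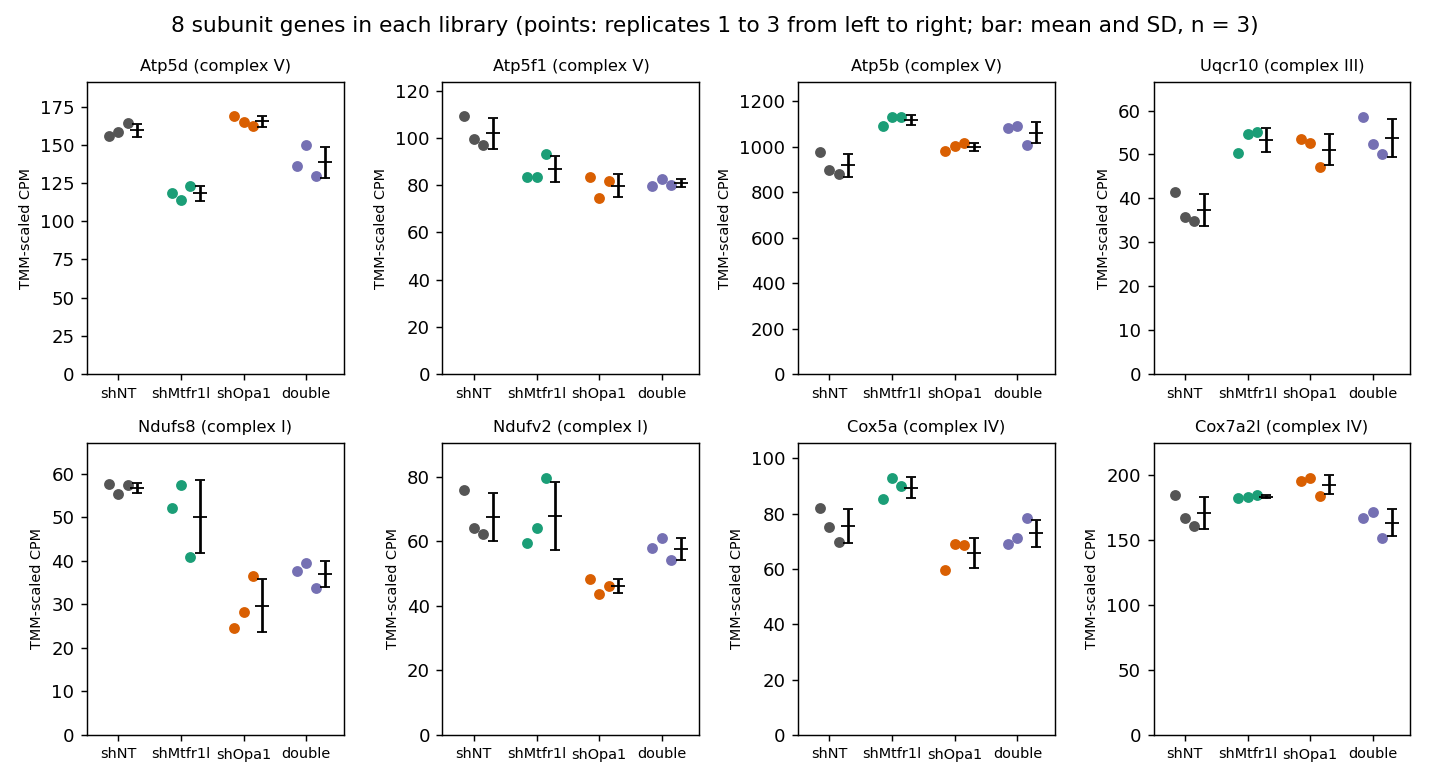
TMM-scaled CPM of 8 subunit genes in each library (points, replicates 1 to 3 from left to right) with mean and SD (n = 3) for shNT, shMtfr1l, shOpa1 and the double knockdown. Atp5d is lowest in shMtfr1l and near shNT in shOpa1, Ndufs8 is low in both groups with Opa1 knockdown, and Uqcr10 is high in all 3 knockdown groups.

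With both genes lowered, 9 members rose and 8 fell against shNT, where 11.2% of all genes rose and 11.9% fell (23.1% in either direction, beside 22.1% of the members). The members' median log2 fold change was -0.01. Complex III had 3 rises of 9, complex I 2 rises and 4 falls of 37, complex IV 1 fall of 16, and complex V 4 rises and 3 falls of 15. Uqcr10 rose 1.44-fold (a log2 change of 0.53 with SE 0.09 and adjusted p = 2.99e-05). Uqcrfs1 stood at 86.1, 78.8 and 85.98 CPM with shNT and 95.05, 97.1 and 98.3 with both shRNAs, apart, and rose 1.16-fold (a log2 change of 0.21 with SE 0.07 and adjusted p = 0.0235). Cyc1 stood at 114, 95.95 and 99.8 CPM with shNT and 133, 119.9 and 109.6 with both shRNAs, with an overlap of 1 library, and rose 1.17-fold (a log2 change of 0.23 with SE 0.08 and adjusted p = 0.0240).

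In complex I, Ndufs8 fell 1.53-fold (a log2 change of -0.62 with SE 0.12 and adjusted p = 0.000425), Ndufa1 1.28-fold (adjusted p = 0.00386) and Ndufa11 1.18-fold (adjusted p = 0.0187). Ndufa9 rose 1.16-fold (adjusted p = 0.0266) and Ndufa10 1.18-fold (adjusted p = 0.0151). Among the ATP synthase genes, Atp5b stood above shNT in every double-knockdown library and rose 1.16-fold (a log2 change of 0.21 with SE 0.04 and adjusted p = 0.00049). Atp5a1 (1.11-fold), Atp5g3 (1.14-fold) and Atp5o (1.21-fold) rose as well (adjusted p = 0.00949, 0.00918 and 0.0113). The falls were Atp5d (1.15-fold, adjusted p = 0.0115), Atp5e (1.24-fold, adjusted p = 0.00161) and Atp5f1 (1.26-fold, adjusted p = 0.000434). Ndufc2, a membrane-arm accessory subunit named after its values were seen, also fell (1.20-fold, adjusted p = 0.0297).

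Of these, the calls on Uqcr10, Ndufs8, Ndufa1, Atp5e and Atp5f1 passed under all 21 alternative settings. Without shNT replicate 1 calls on Cox6b2, Ndufa11 and Ndufc2 were lost (adjusted p = 0.0725 to 0.253). Without shNT replicate 2 calls on Cox6b2, Cyc1 and Uqcrfs1 were lost (adjusted p = 0.127 to 0.147). Without shNT replicate 3 calls on Atp5a1, Atp5d, Atp5g3, Cox6b2, Cyc1, Ndufa9 and Ndufc2 were lost (adjusted p = 0.0559 to 0.116). Without shMtfr1l replicate 1 the call on Cox6b2 was lost (adjusted p = 0.0611). Without shOpa1 replicate 2 the call on Cox6b2 was lost (adjusted p = 0.0593). Without double-knockdown replicate 1 calls on Atp5d, Cox6b2, Cyc1 and Ndufa10 were lost (adjusted p = 0.050049 to 0.198). Without double-knockdown replicate 2 calls on Atp5o, Cox6b2, Cyc1, Ndufa10, Ndufa9, Ndufc2 and Uqcrfs1 were lost (adjusted p = 0.0554 to 0.14). Without double-knockdown replicate 3 calls on Atp5d, Cox6b2, Ndufa11, Ndufc2 and Uqcrfs1 were lost (adjusted p = 0.0719 to 0.153). Atp5b lost its call only without replicate 2 in all groups (adjusted p = 0.0666). The number of members called fell from 17 to 11 without shNT replicate 3 and 11 without double-knockdown replicate 2. With a replicate number left out of all groups it was 12 without replicate 1, 9 without replicate 2 and 10 without replicate 3.

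Between the double knockdown and shMtfr1l, 11 members fell and 1 rose, where 11.7% of all genes fell and 9.72% rose. In either direction 15.6% of the members were called, below the 21.5% of all genes. Of the 37 complex I genes 8 fell (21.6%). The members' median log2 fold change was -0.10, against 0.00 over all genes, and it was negative for 59 of 77. Replicate 2 was the highest double-knockdown library for 43 of the 77 members (55.8%, against 32.6% of all genes) and replicate 3 for 10 (12.99%, against 34.4%), and without double-knockdown replicate 3 the members' median was -0.06. Ndufa11 fell 1.26-fold (a log2 change of -0.33 with SE 0.08 and adjusted p = 0.00131). Ndufs8 fell 1.36-fold (a log2 change of -0.44 with SE 0.12 and adjusted p = 0.00997) and Ndufa1 1.24-fold (a log2 change of -0.31 with SE 0.09 and adjusted p = 0.0137). Ndufa4 was first assigned to complex I and is now counted with complex IV. By its name it is kept under complex I in all counts and sums here, as is its paralog Ndufa4l2. Ndufa4 stood at 138, 109.6 and 106 CPM with shNT, 134, 134 and 136 with shMtfr1l, 111, 109 and 118 with shOpa1 and 109, 126 and 107 with both shRNAs and fell 1.18-fold (a log2 change of -0.24 with SE 0.08 and adjusted p = 0.0245). Ndufb9 fell 1.18-fold (adjusted p = 0.0279), as did Ndufc2 (1.19-fold, adjusted p = 0.0418) and Ndufa13 (1.15-fold, adjusted p = 0.0489), the latter also named after its values were seen.

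Outside complex I, Cox5a fell 1.23-fold (a log2 change of -0.29 with SE 0.08 and adjusted p = 0.00449), Uqcrb 1.39-fold (a log2 change of -0.47 with SE 0.15 and adjusted p = 0.0239) and Cox7a2l 1.12-fold (a log2 change of -0.17 with SE 0.06 and adjusted p = 0.0419). Atp5d was the 1 member to rise, 1.17-fold (a log2 change of 0.23 with SE 0.06 and adjusted p = 0.0055). The call on Ndufa11 passed under all 21 alternative settings, and that on Cox5a in all but the omission of replicate 2 from every group (adjusted p = 0.0977). Without shNT replicate 2 the call on Ndufa13 was lost (adjusted p = 0.0584). Without shNT replicate 3 the call on Ndufc2 was lost (adjusted p = 0.0502). Without shMtfr1l replicate 1 calls on Cox7a2l, Ndufa13, Ndufa4, Ndufs8 and Uqcrb were lost (adjusted p = 0.0522 to 0.102). Without shMtfr1l replicate 2 calls on Cox7a2l, Ndufa1, Ndufa13, Ndufa4, Ndufb9, Ndufc2, Ndufs8 and Uqcrb were lost (adjusted p = 0.050001 to 0.186). Without shMtfr1l replicate 3 calls on Cox7a2l, Ndufa13, Ndufa4, Ndufb9 and Ndufc2 were lost (adjusted p = 0.0775 to 0.229). Without shOpa1 replicate 1 calls on Cox7a2l, Ndufa13 and Ndufc2 were lost (adjusted p = 0.0505 to 0.0564). Without double-knockdown replicate 1 calls on Cox7a2l, Ndufa1, Ndufa13, Ndufa4, Ndufb9 and Uqcrb were lost (adjusted p = 0.0628 to 0.203). Without double-knockdown replicate 2 calls on Atp5d, Ndufc2 and Uqcrb were lost (adjusted p = 0.0837 to 0.131). Without double-knockdown replicate 3 calls on Cox7a2l, Ndufa13, Ndufa4, Ndufc2 and Ndufs8 were lost (adjusted p = 0.0573 to 0.255). With replicate number as a block, Ndufa13 (adjusted p = 0.0550) and Ndufc2 (adjusted p = 0.0618) did not pass. Both also failed in DESeq2 (adjusted p = 0.0562 and 0.0646) and without robust shrinkage (adjusted p = 0.0525 and 0.0616). Ndufa13 failed with DESeq2 size factors and without the filter on low counts as well (adjusted p = 0.0543 and 0.0537). Cox7a2l failed without robust shrinkage (adjusted p = 0.0547). The number of members called fell from 12 to 4 without shMtfr1l replicate 2, and to 7 each without shMtfr1l replicate 3, double-knockdown replicate 1 or double-knockdown replicate 3. With a replicate number left out of all groups it was 6 without replicate 1, 2 without replicate 2 and 5 without replicate 3. Mtfr1l itself was 1.66-fold higher in the double knockdown than in shMtfr1l (adjusted p = 5.27e-06), and the part of this weaker knockdown in these differences was not tested.

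Between the double knockdown and shOpa1 alone, 1 member rose and 2 fell, where 2.31% of all genes rose and 2.46% fell (4.77% in either direction). Atp5d fell 1.19-fold (a log2 change of -0.26 with SE 0.06 and adjusted p = 0.00683) and Cox7a2l 1.18-fold (a log2 change of -0.24 with SE 0.06 and adjusted p = 0.0128), while Ndufv2 rose 1.25-fold (a log2 change of 0.32 with SE 0.09 and adjusted p = 0.0371). The groups were apart in all 3. Atp5d lost its call without double-knockdown replicate 3 (adjusted p = 0.0803). Ndufv2 lost its call without shOpa1 replicate 1, 2 or 3 or double-knockdown replicate 1 or 2 (adjusted p = 0.0593 to 0.174). Cox7a2l lost its call without shOpa1 replicate 1 or 2 or double-knockdown replicate 3 (adjusted p = 0.0600 to 0.135). With replicate number as a block the adjusted p of Ndufv2 was 0.0676, and without robust shrinkage it was 0.0687. The count of members called was 1 without double-knockdown replicate 3 and 1 each without shOpa1 replicate 1 or 2. With a replicate number left out of all groups it was 0 without replicate 1, 1 without replicate 2 and 2 without replicate 3. Opa1 was 2.04-fold higher in the double knockdown than in shOpa1 (adjusted p = 0.00745), and the part of this difference in the calls was not tested.

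The interaction asks whether the Mtfr1l effect differed with and without the Opa1 shRNA. Of the members, 2 passed, both with a negative term, where 1.99% of all genes had a negative and 1.57% a positive term past the threshold (3.56% in all). For Uqcr10 the Mtfr1l effect was a log2 fold change of 0.52 without the Opa1 shRNA and 0.07 with it (difference -0.45 ± 0.13, SE, adjusted p = 0.0416). For Cox7a2l it was 0.10 without and -0.24 with (difference -0.34 ± 0.08, SE, adjusted p = 0.0144). In both genes the fitted value of each single knockdown against shNT was positive, and that of the double knockdown was below their sum. Uqcr10 lost its call without shNT replicate 2 or 3, shMtfr1l replicate 2 or 3, shOpa1 replicate 1 or 2 or double-knockdown replicate 2 or 3 (adjusted p = 0.0841 to 0.121). It was also lost without robust shrinkage (adjusted p = 0.0588). Cox7a2l lost its call without shNT replicate 3 or double-knockdown replicate 3 (adjusted p = 0.0628 to 0.0673). The count of 2 became 0 without shNT replicate 3 or double-knockdown replicate 3, 1 each without shNT replicate 2, shOpa1 replicate 1 or shOpa1 replicate 2, and 4 each without shNT replicate 1 or shOpa1 replicate 3. With a replicate number left out of all groups it was 3 without replicate 1, 0 without replicate 2 and 2 without replicate 3. Cox5a, which rose with one knockdown and fell with the other, had an interaction adjusted p of 0.771, and Atp5d one of 0.325.

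Isoforms that heart and skeletal muscle use in place of the common ones stayed at low levels in every group. Cox6a2, the muscle form of subunit 6a, stood at 1.59, 0.775 and 1.37 CPM with shNT, 0.78, 2.16 and 1.22 with shMtfr1l, 1.19, 1.71 and 1.53 with shOpa1 and 1.12, 2.06 and 1.55 with both shRNAs, and its common partner Cox6a1 at 226, 211 and 212 CPM with shNT, 191, 197 and 195 with shMtfr1l, 216, 222 and 215 with shOpa1 and 228, 205 and 184 with both shRNAs. Per unit length Cox6a2 made up 0.461% ± 0.144 of the pair in shNT (SD, n = 3), 0.57% ± 0.282 in shMtfr1l, 0.544% ± 0.0913 in shOpa1 and 0.626% ± 0.209 with both shRNAs, with overlapping libraries. Cox7a1, the muscle form of subunit 7a, stood at 0.855, 1.34 and 1.32 CPM with shNT, 2.44, 0.409 and 2.15 with shMtfr1l, 0.594, 0.761 and 0.191 with shOpa1 and 0.913, 0.584 and 1.50 with both shRNAs. Its share beside Cox7a2 was 2.91% ± 0.978, 3.72% ± 2.42, 1.29% ± 0.72 and 2.39% ± 1.09 in the same order, and the shMtfr1l libraries spread from 0.409 to 2.44 CPM. Cox8b, the muscle form of subunit 8, stood at 0.427, 0.345 and 0.567 CPM with shNT, 2.81, 1.28 and 0.812 with shMtfr1l, 1.14, 1.19 and 0.238 with shOpa1 and 0.705, 1.32 and 0.73 with both shRNAs. All 3 shMtfr1l libraries lay above all 3 shNT libraries, but the difference did not pass (adjusted p = 0.0972). Its share was 0.384% ± 0.0903 in shNT and 1.29% ± 0.744 in shMtfr1l. Cox7a2 stood at 97.1, 76.2 and 75.9 CPM with shNT, 83.6, 81.8 and 94.7 with shMtfr1l, 77.8, 83.5 and 82.3 with shOpa1 and 81.3, 86.8 and 84.5 with both shRNAs, Cox8a is given above, and neither common form passed in shMtfr1l (adjusted p = 0.721 and 0.434).

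Other paralogs were also scarce. Cox4i2, the lung form that low oxygen raises, stood at 3.17, 2.84 and 1.80 CPM with shNT, 1.72, 0.818 and 1.39 with shMtfr1l, 3.22, 3.19 and 2.15 with shOpa1 and 1.83, 2.88 and 1.14 with both shRNAs, against 375, 325 and 310.0 CPM with shNT, 334, 351 and 346 with shMtfr1l, 333, 324 and 324 with shOpa1 and 337, 321 and 319 with both shRNAs for Cox4i1. Its share of the pair was 0.711% ± 0.15 in shNT and 0.356% ± 0.131 in shMtfr1l, where all libraries lay below those of shNT, but the gene did not pass (adjusted p = 0.171). Ndufa4l2, a paralog of Ndufa4 that low oxygen also raises, stood at 2.32, 3.23 and 2.60 CPM with shNT, 0.572, 1.99 and 0.58 with shMtfr1l, 2.48, 2.52 and 1.96 with shOpa1 and 0.664, 1.21 and 2.01 with both shRNAs. It was lower in every shMtfr1l library than in any shNT library, and did not pass (adjusted p = 0.0748). Cox6b2, the testis form of subunit 6b, stood at 4.64, 6.07 and 4.11 CPM with shNT, 3.74, 2.69 and 5.51 with shMtfr1l, 3.37, 1.43 and 0.334 with shOpa1 and 2.07, 2.06 and 1.46 with both shRNAs, and Cox6b1 at 141, 129 and 128 CPM with shNT, 125, 137 and 137 with shMtfr1l, 120.0, 125 and 123 with shOpa1 and 112, 121 and 125 with both shRNAs. Cox6b2 fell 2.90-fold in shOpa1 (a log2 change of -1.54 with SE 0.48 and adjusted p = 0.0194) and 2.64-fold in the double knockdown (a log2 change of -1.40 with SE 0.48 and adjusted p = 0.0369), apart from shNT both times, with a spread in shOpa1 that reached down to 0.334 CPM. The testis forms Cox8c and Cox7b2 did not pass the filter. Cox8c had no count in any library, and Cox7b2 had a count in 4 of 12 libraries, at most 0.285 CPM, beside 74.9, 69.9 and 74.8 CPM with shNT for Cox7b. The 3 genes for subunit c, whose mature protein is the same, split unevenly. Atp5g3 made up 84.9% ± 1.23 of their summed per-length level in shNT and 87.5% ± 0.825 in shMtfr1l, where Atp5g1 (56.2% of windows shared) and Atp5g2 (46.4%) are subject to the counting limit above.

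**Figure D4:**
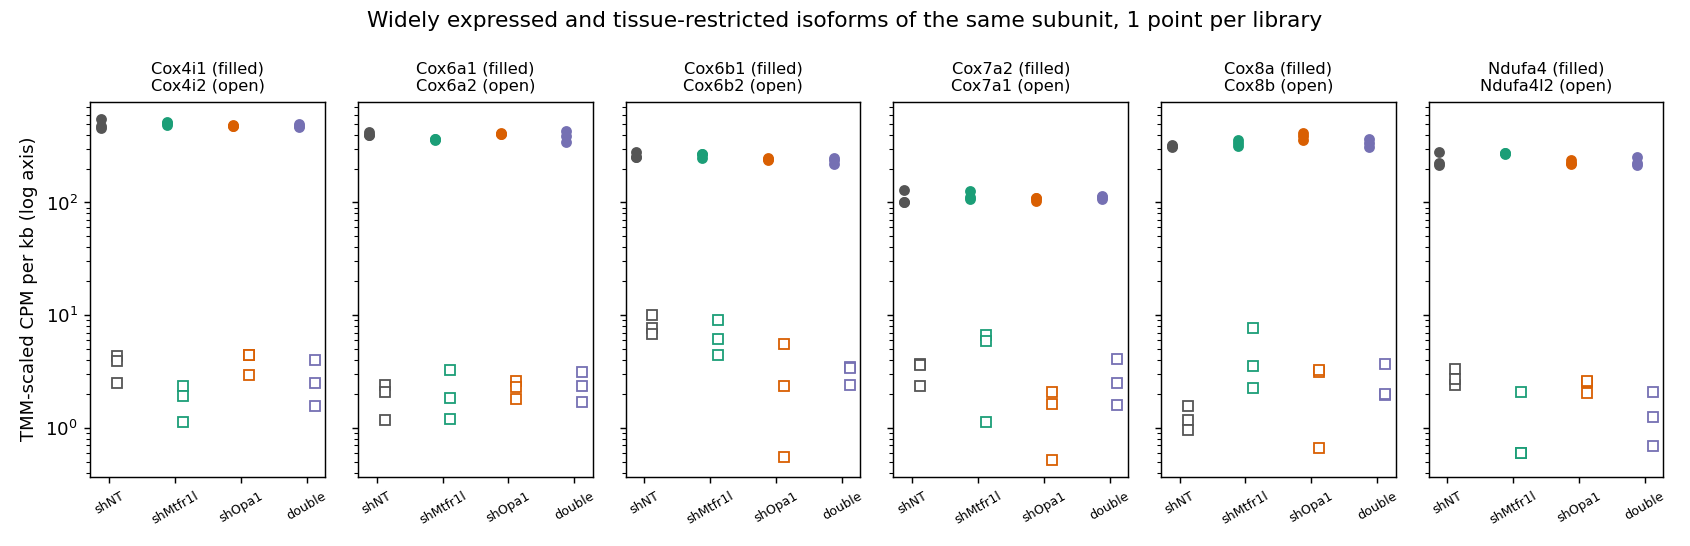
Per-length level (TMM-scaled CPM per kb, log axis) of 6 pairs of a common (filled) and a tissue-restricted (open) isoform, 1 point per library, in the 4 groups. In every library each common form lies more than a decade above its restricted form.

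The first set gave the same comparison of shMtfr1l with shNT in other samples, 1 of each. Mtfr1l stood at 79.3 CPM in shNT and 8.73 in shMtfr1l, and Opa1 at 80.2 CPM in shNT and 85.4 in shMtfr1l. Of 73 members with a mean of at least 1 CPM and a count in both samples, 30 were over 1.25-fold higher in shMtfr1l and 6 over 1.25-fold lower, where 11.2% and 16.2% of 12812 genes were. The median log2 ratio was 0.29 over the members, and it was positive for 64. By complex it was 0.42 for III, 0.29 for I, 0.22 for V and 0.15 for IV. It was 0.00 over all genes, 0.30 over 22 tricarboxylic acid cycle genes (positive for 19) and 0.19 over 75 mitochondrial ribosomal protein genes (positive for 65). Scaling by total counts alone gave 41 and 3 members and, over all genes, 1925 higher and 1719 lower in place of 1432 and 2081.

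All 13 members called in shMtfr1l in the second set had the same sign in the first, where 64 of all 73 members measured were positive. Atp5d stood at 183, 192 and 174 CPM in the shNT columns and 81.4, 87.6 and 79.6 in the shMtfr1l columns, a ratio of 2.22-fold lower. Atp5f1 stood at 83.8, 91.9 and 87.8 CPM in the shNT columns and 61.8, 60.9 and 68.00 in the shMtfr1l columns, 1.39-fold lower. In both genes every shMtfr1l column lay below every shNT column. Cyc1 stood at 109, 114 and 107 CPM in the shNT columns and 178, 179 and 164 in the shMtfr1l columns, 1.57-fold higher, and Ndufb9 at 50.3, 51.8 and 53.5 CPM in the shNT columns and 82.9, 83.9 and 79.6 in the shMtfr1l columns, 1.58-fold higher. The ratios were 1.51-fold for Uqcrfs1, 1.42-fold for Atp5g3, 1.41-fold for Atp5o, 1.39-fold for Atp5b, 1.36-fold for Ndufa9, 1.35-fold for Atp5a1, 1.30-fold for Uqcr10, 1.27-fold for Uqcrb and 1.21-fold for Cox5a, all higher. Atp5c1, the gamma subunit that turns with delta and epsilon, stood at 117, 126 and 110.0 CPM in the shNT columns and 90.3, 98.9 and 90.7 in the shMtfr1l columns. It was 1.27-fold lower, while in the second set it stood at 137, 131 and 121 CPM with shNT and 124, 122 and 129 with shMtfr1l, overlapping (adjusted p = 0.692). Cox6b1 was 1.28-fold lower (124 CPM in shNT and 97.1 in shMtfr1l), and did not pass in the second set (adjusted p = 0.98). Of the muscle isoforms, Cox7a1 stood at 2.31 CPM in shNT and 4.63 in shMtfr1l, and Cox6a2 at 1.00 CPM in shNT and 1.08 in shMtfr1l.

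**Figure D5:**
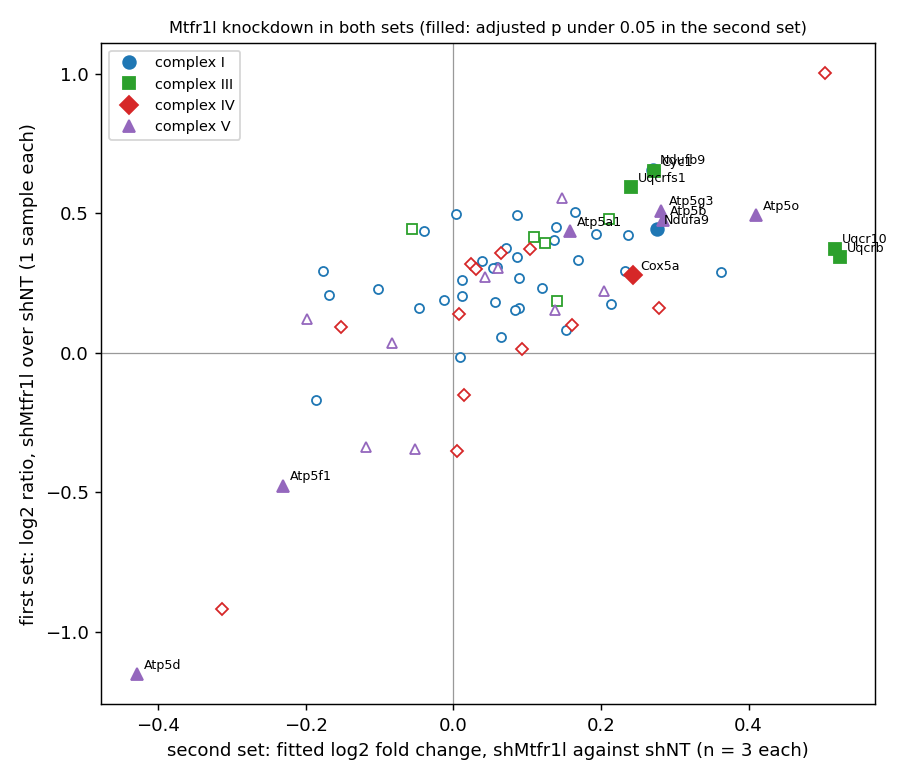
Log2 ratio of shMtfr1l over shNT in the first set (1 sample each) against the fitted log2 fold change in the second set (n = 3 each) for the 73 subunit genes measured in both, 1 point per gene and 1 colour per complex. Filled, named points passed the test in the second set, and all 13 lie to the upper right or lower left of the origin, with Atp5d lowest on both axes. Of all 73 points, 64 lie above 0 on the first-set axis.

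Other genes of the same pathways, taken from lists, were read in the same fits. Among 22 tricarboxylic acid cycle genes, entry step included, 8 rose and 0 fell in shMtfr1l (median log2 fold change 0.15), 4 rose and 1 fell in shOpa1, and 5 rose and 0 fell in the double knockdown. The share called was 36.4% in shMtfr1l, above the 10.8% of all genes, and 22.7% each in shOpa1 and the double knockdown, below the 29.4% and just below the 23.1% of all genes. Idh2, the mitochondrial NADP-dependent isocitrate dehydrogenase, stood at 107, 94.96 and 102 CPM with shNT, 132, 122 and 120.0 with shMtfr1l, 127, 121 and 122 with shOpa1 and 121, 122 and 116 with both shRNAs, above shNT in all 9 knockdown libraries. It rose 1.23-fold in shMtfr1l, 1.22-fold in shOpa1 and 1.18-fold in the double knockdown (adjusted p = 0.000904, 0.000456 and 0.00343), with an interaction term of -0.34 (adjusted p = 0.0198). Of 76 mitochondrial ribosomal protein genes none was called in shMtfr1l (4 had an unadjusted p under 0.05 in edgeR), 5 rose and 2 fell in shOpa1, and 5 rose and 1 fell in the double knockdown, a smaller share than that of all genes in each (0%, 9.21% and 7.89% called). Of the 4 complex II genes, Sdha, the flavoprotein, rose in all 3 comparisons with shNT (adjusted p = 0.0108, 0.00109 and 0.00103), at 164, 181 and 172 CPM with shNT, 195, 207 and 194 with shMtfr1l, 203, 205 and 199 with shOpa1 and 208, 199 and 203 with both shRNAs. Cytochrome c (Cycs) stood at 5.92, 7.58 and 8.84 CPM with shNT, 8.84, 7.30 and 11.02 with shMtfr1l, 9.80, 8.32 and 9.01 with shOpa1 and 6.76, 7.16 and 8.71 with both shRNAs and was not called in any comparison. The Sdha call in shMtfr1l was lost without shNT replicate 1 or shMtfr1l replicate 2 (adjusted p up to 0.0748), and the Idh2 interaction without shNT replicate 2, shMtfr1l replicate 1, shOpa1 replicate 1 or double-knockdown replicate 3 (adjusted p up to 0.0844). Both were also lost without replicate 1, 2 or 3 in all groups (adjusted p up to 0.102 for Sdha and 0.178 for Idh2). Without replicate 2 in all groups Idh2 did not pass in shMtfr1l (adjusted p = 0.0501) or the double knockdown (adjusted p = 0.156).

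Of 42 assembly factors tested, 1 rose and 1 fell in shMtfr1l, 3 rose and 2 fell in shOpa1, and 2 rose and 0 fell in the double knockdown, with 4.76%, 11.9% and 4.76% called, below the share of all genes each time. Coa5, a complex IV assembly factor, stood at 86.6, 97.9 and 103 CPM with shNT, 160.3, 156 and 158 with shMtfr1l, 153, 146 and 151 with shOpa1 and 162, 167 and 162 with both shRNAs. It was above shNT in all 9 knockdown libraries and rose 1.65-fold in shMtfr1l (a log2 change of 0.72 with SE 0.06 and adjusted p = 4.23e-11), 1.56-fold in shOpa1 (a log2 change of 0.64 with SE 0.06 and adjusted p = 9.4e-11) and 1.71-fold in the double knockdown (a log2 change of 0.77 with SE 0.06 and adjusted p = 1.75e-12). The call against shNT passed under all 21 alternative settings in each of the 3 comparisons. Its interaction term was -0.59 ± 0.09, SE (adjusted p = 2.6e-05). Coa5, Idh2, Sdha, Ppargc1a and Esrra were named after their values were seen. Among 10 regulators of these genes, 1 rose and 0 fell in shMtfr1l, 2 rose and 1 fell in shOpa1, and 1 rose and 1 fell in the double knockdown. The share called was 10%, 30% and 20%, near the 10.8%, 29.4% and 23.1% of all genes. Of these regulators, the coactivator Ppargc1a stood at 3.66, 2.76 and 2.98 CPM with shNT, 8.73, 5.61 and 4.47 with shMtfr1l, 1.53, 1.05 and 0.715 with shOpa1 and 1.20, 1.28 and 1.64 with both shRNAs. All shMtfr1l libraries lay above and all libraries with Opa1 knockdown below shNT. It fell in shOpa1 (a log2 change of -1.50 with SE 0.38 and adjusted p = 0.00209) and in the double knockdown (a log2 change of -1.18 with SE 0.37 and adjusted p = 0.0162), and the difference in shMtfr1l did not pass (adjusted p = 0.0592). Esrra, the receptor that partners with it, rose 1.26-fold in shOpa1 (adjusted p = 0.00512), from 35.9, 39.7 and 32.4 CPM with shNT and 46.2, 44.9 and 45.2 with shOpa1. The Ppargc1a call in the double knockdown was lost without shNT replicate 1 or double-knockdown replicate 1 or 2 (adjusted p up to 0.0612), and that of Esrra without shNT replicate 3 (adjusted p = 0.0562). Leaving a replicate number out of all groups also lost the Ppargc1a call there without replicate 1 or 2 (adjusted p = 0.18 and 0.0779). It lost the Esrra call in shOpa1 without replicate 1 or 3 (adjusted p = 0.0518 and 0.0908).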

How the data were processed

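RNA-seq reads of bulk cultures were counted per gene by the authors with featureCounts 2.0.6, per the file headers, as paired-end, strand-specific reads over UCSC mm10 genes, each mate counted on its own, and reads with several alignments or genes left out. The deposited values are raw counts. FastQC and DESeq2 appear in the submitters' processing notes without versions, with an aligner not given in the sources used here. Near-identical copies therefore lose reads. A further 12 count columns of the 4 fibroblast samples of the first set could not be tied to single samples and are not analysed here.

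Counts of the 12 second-set libraries were fitted in R 4.3.3 with edgeR 4.0.16 (filterByExpr, TMM, quasi-likelihood test with robust shrinkage, 4 group means, 8 residual degrees of freedom), adjusted by Benjamini-Hochberg over 14162 genes, with a threshold of 0.05. The scripts were tested on simulated data. CPM uses TMM-scaled library sizes, and per-kb values divide by the gene length in the tables. First-set columns were summed per sample, scaled by TMM and read as ratios without a test, for genes of 1 CPM or more on average. Marker sums add CPM over a list. Alternatives were DESeq2 1.42.0, DESeq2 size factors, no filter, fits of the compared groups only, each library or replicate number left out, replicate number as a block, and, added after seeing the data, edgeR without robust shrinkage. Robust shrinkage itself was adopted after the tables were seen, since it matched an earlier processing of these data.

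The main fit did not pair the libraries. Replicate number entered only the alternatives that used it as a block or left it out, since the titles tie each number to a day. The labels do not settle whether the day numbers and the shOpa1, shOpa2 and shOpa3 entries are real days and reagents or numbering slips. Deviations from group means correlated at -0.189 to 0.122 (median -0.002) for 18 same-number pairs and at -0.136 to 0.195 for 36 others. Genes were named if called in any of the 6 comparisons, at most 5 per complex and comparison by adjusted p, together with the tissue isoforms, their common partners and Ndufs1, Uqcrc1, Cox5a and Atp5b. The members and lists were chosen with earlier results of these data known. 1 of the genes so chosen is counted but not reported here.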

Additional observations from a re-analysis of the deposited data

Results flagged for a closer look

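Uqcr10 and Cox7a2l responded differently to Mtfr1l knockdown with and without Opa1 knockdown in edgeR's interaction test. The difference between the 2 effects was -0.45 on the log2 scale for Uqcr10 (adjusted p = 0.0416) and -0.34 for Cox7a2l (adjusted p = 0.0144). Uqcr10 lost its call in 11 of 20 alternatives and Cox7a2l in 4. Target levels differed as well, since Mtfr1l was 1.66-fold higher in the double knockdown than in shMtfr1l, and Opa1 2.04-fold higher than in shOpa1, and their part in the difference was not tested. Of the other pathway genes named, Coa5 (difference -0.59, adjusted p = 2.6e-05) and Idh2 (difference -0.34, adjusted p = 0.0198) differed in the same test, Coa5 in every alternative run and Idh2 in 13 of 20.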

How the results depend on the processing

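Of the 62 calls on members, 20 passed under every alternative and 42 were lost in some, 3 of them in DESeq2, and no called value of a member reversed its direction. With 1 library, or 1 replicate number in all groups, left out, the count of members called ran from 6 to 13 in shMtfr1l, 10 to 16 in shOpa1 and 9 to 18 in the double knockdown against shNT, from 2 to 13 in the double knockdown against shMtfr1l, and from 0 to 4 both against shOpa1 and for the interaction. With replicate number as a block the counts were 12, 14, 17, 10, 2 and 2 in that order. It lost Cox5a in shMtfr1l and shOpa1, Ndufc2 and Ndufa13 in the double knockdown against shMtfr1l and Ndufv2 against shOpa1, and changed no other call. Without the filter on low counts the counts were 5 against shOpa1 and 4 for the interaction, and the interaction count was 5 in DESeq2 and 1 without robust shrinkage. In the first set, scaling by total counts gave 3 members over 1.25-fold lower in place of 6. Median log2 fold changes of the members stayed positive in shMtfr1l (0.03 to 0.15) and negative against shMtfr1l (-0.14 to -0.06) when libraries were left out, and changed sign in shOpa1 (-0.08 to 0.04) and the double knockdown against shNT (-0.08 to 0.05). At these depths a level under 0.117 to 0.183 CPM (3 counts) cannot be told from 0, and the limit may be higher because mates were counted separately. The cause of the lost calls, and of the spread of Cox6b2 between the shOpa1 libraries, was not tested.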
